A study of Mus musculus with 20 samples.

Results

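Peaks of open chromatin assigned to olfactory receptor genes were followed in mouse ER-Hoxa9-Lys-GFP cells by ATAC-seq, a method in which the transposase Tn5 tags accessible DNA. A peak was a member when the gene symbol that the deposited annotation gave it, that of the nearest transcription start site (TSS), began with Olfr. Of the 504887 peaks summed over 10 lists, 1835 were members, and they formed 354 of 88351 union regions, which are overlapping peaks of all lists chained together. All samples were C57BL/6 cells grown in vitro in medium with conditioned medium containing stem cell factor, and all carried ER-Hoxa9, a fusion of the estrogen receptor and the homeobox factor Hoxa9, and the Lys-GFP reporter. The groups were cells kept with estradiol (E2), called 0 h, and cells at 4, 8, 12, 24, 36, 48, 72, 96 and 120 h after E2 was washed out. Each of the 10 groups had 2 replicates, but 1 peak list was deposited per time, so no spread between replicates and no test could be had. Every interval is a 95% Wilson interval, which covers the error of counting alone. Read depth is unknown, and peaks of 1 gene cluster are neighbours rather than independent measurements.

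Olfactory receptors are G protein-coupled receptors that detect odorants. They form the largest gene family of the mouse genome, and most of their coding sequences lie in a single exon. They stand in tandem clusters, and each olfactory sensory neuron transcribes 1 allele of 1 receptor gene, while the other receptor genes stay in heterochromatin. In that neuron the factors Lhx2, Ldb1 and Ebf act at enhancers within or near the clusters. Blood progenitors are not known to use this programme. The assignment by nearest start names a neighbour and does not show which gene a site acts on.

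Some receptor genes had a listed peak at or near the annotated start, and the sequences of the windows touched in most lists are shown. The later results on receptor starts use the deposited distances and not these windows. RefSeq promoter windows (GRCm38.p6) hold 250 bases before and 50 bases from the annotated start. Of 948 Olfr windows, covering 944 symbols, 9 touched a peak in any list: 4 in 1 list, 2 in 2 lists, and the windows of Olfr461, Olfr1510 and Olfr1511 in 6, 7 and 8 lists. The share of all windows that touched a peak was not counted. Olfr1033, listed at -108 to -15 bp from its start in 9 lists, has no window in this set. In the lines below each window runs 5′ to 3′ on the minus strand, and capitals mark bases that a listed peak covered. The Olfr461 window (chr6:40544928-40545227) was touched from 24 to 120 h, that of Olfr1510 (chr14:52410878-52411177) from 0 to 48 h and that of Olfr1511 (chr14:52390722-52391021) from 0 to 72 h.
Olfr461: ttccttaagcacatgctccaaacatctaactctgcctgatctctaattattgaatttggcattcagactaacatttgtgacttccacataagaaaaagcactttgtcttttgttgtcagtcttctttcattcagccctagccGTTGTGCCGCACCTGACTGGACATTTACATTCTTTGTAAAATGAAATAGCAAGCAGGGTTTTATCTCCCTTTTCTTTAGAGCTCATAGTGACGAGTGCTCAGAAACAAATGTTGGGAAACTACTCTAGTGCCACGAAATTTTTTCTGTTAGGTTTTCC
Olfr1510: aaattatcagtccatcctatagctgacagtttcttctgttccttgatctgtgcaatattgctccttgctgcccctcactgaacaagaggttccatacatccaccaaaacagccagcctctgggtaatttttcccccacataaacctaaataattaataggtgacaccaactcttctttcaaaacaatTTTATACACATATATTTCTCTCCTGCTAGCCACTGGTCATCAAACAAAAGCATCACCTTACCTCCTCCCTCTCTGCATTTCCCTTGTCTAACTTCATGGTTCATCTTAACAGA
Olfr1511: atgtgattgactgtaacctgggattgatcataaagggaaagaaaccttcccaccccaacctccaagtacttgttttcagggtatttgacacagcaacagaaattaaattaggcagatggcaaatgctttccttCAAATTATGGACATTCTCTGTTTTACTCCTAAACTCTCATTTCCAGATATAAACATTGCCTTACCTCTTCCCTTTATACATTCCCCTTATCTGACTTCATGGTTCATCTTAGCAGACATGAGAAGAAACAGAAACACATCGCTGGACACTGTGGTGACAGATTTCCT
In all 3 windows the covered stretch ran through the annotated start to the end of the window. Peaks covered 158 of the 300 bases at Olfr461, 113 at Olfr1510 and 167 at Olfr1511. The neighbouring genes Olfr1511 and Olfr1510 had similar windows, with 50 of 60 bases (83.3%) identical in the best ungapped stretch, against 31 of 60 for Olfr1511 and Olfr461. The sources used here do not give how reads that match several receptor copies were placed.

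Short motifs were searched in the same windows on both strands. TAATTA, a core bound by homeodomain factors such as Lhx2, lay at position 150 of the Olfr1510 window and at position 44 of the Olfr461 window, in both cases outside the covered bases. It was present in 18.6% of Olfr windows and in 5.29% of all 32851 windows. TGTGGT, a Runx core, lay at position 283 of the Olfr1511 window, inside the covered bases, and was present in 20.8% of Olfr windows and 16.8% of all windows. No letters matched GAGGAA, a core of the myeloid factor Spi1, in these 3 windows. That core was held by 26.1% of Olfr windows and 28.3% of all windows. The C/EBP core TTGCNNAA (15.7% of Olfr windows, 10.8% of all) and the Ebf core CCCNNGGG (3.06% of Olfr windows, 13.7% of all) had no match in the 3 windows either. Olfr windows were poor in G and C, with a median of 35.0%, against 53.3% in the other windows, and had a median of 1 CpG against 8. These matches describe the letters and show no binding.

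The annotated start of a receptor gene was often the start codon. In 686 of 948 Olfr windows (72.4%) the letters at the annotated start were ATG, against 1229 of 31903 other windows (3.85%). For those receptors the deposited distance is a distance to the coding sequence, and a start of transcription farther upstream would not be in it.

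Receptor peaks were a small portion of every list, and a smaller one in the late lists. The list with E2 held 222 Olfr peaks. The early lists held 210 (4 h), 216 (8 h) and 231 (12 h), the middle lists 245 (24 h), 206 (36 h) and 213 (48 h), and the late lists 151 (72 h), 79 (96 h) and 62 (120 h). Numbers stayed between 206 and 245 up to 48 h and were lower in each of the last 3 lists. The Olfr share of the list was 0.262% (0.205 to 0.336%) at 120 h, against 0.402% (0.352 to 0.458%) at 0 h, and these intervals did not overlap. The Olfr peaks at 120 h came to 27.9% of the 0 h number, whereas all peaks came to 42.7%. Most receptor peaks were distal, meaning more than 1000 bp from the start, and over the genome distal peaks lost more of their number than promoter peaks. Among distal peaks alone the Olfr number at 120 h was 25.2% of that at 0 h (52 against 206), and the number of all distal peaks was 32.8%.

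The lower number late was not seen in lists cut to equal length by peak width. With every list cut to its 23620 widest peaks, the length of the shortest, Olfr peaks numbered 62 at 120 h and 54 at 0 h, and between 46 and 57 at the times between. In these cut lists receptor peaks were not fewer late. The 120 h list, being the shortest, was left whole by the cut. At 0 h the cut kept 54 of 222 Olfr peaks and 23620 of all 55261 peaks. Distal Olfr peaks were narrower than other distal peaks (median 395 against 434 bp at 0 h), and the part of width in this was not tested. Whether list length accounts for the lower number was not tested. Width depends on read depth and on the peak caller's settings, and neither was given.

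**Figure D1:**
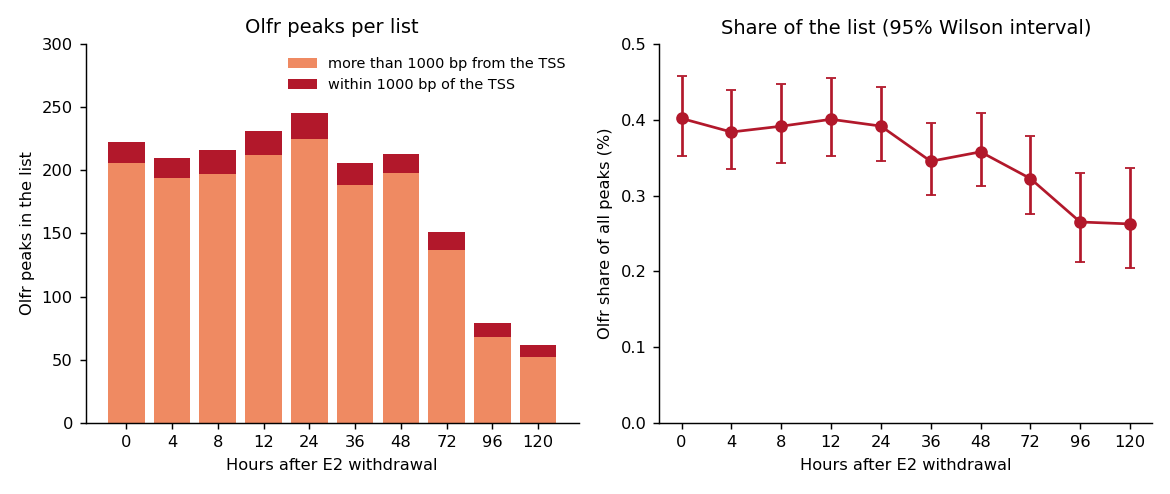
Olfr peaks in each of the 10 lists (left, stacked by distance to the TSS) and their share of all peaks in percent with 95% Wilson intervals (right), against hours after E2 withdrawal. The count stays at 206 or more up to 48 h and is 62 at 120 h, and the share is 0.262% at 120 h against 0.402% at 0 h.

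The receptor repertoire itself was mostly unlisted. RefSeq holds 1428 Olfr genes, 1110 protein-coding and 317 pseudogenes, and 217 symbols had a peak in any list. Genes with a peak numbered 137 at 0 h, 164 at 24 h and 48 at 120 h. Of the 217 symbols, 148 had exactly 1 union region. At 120 h against 0 h, 124 genes had fewer peaks, 21 had more, 11 had as many, and 61 had none at either time. The same gene counts were not made for all RefSeq genes, so these do not set the receptors apart. All peaks at 120 h came to 42.7% of their 0 h number.

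Receptor peaks were distal and intergenic more often than other peaks. Within 1000 bp of a start lay 10 of 62 Olfr peaks (16.1%) at 120 h and 16 of 222 (7.21%) at 0 h. Over all peaks the share was 37.97% at 120 h and 19.2% at 0 h. The distal Olfr peaks lay a median of 11960 bp from the start at 0 h, against 22626.5 bp for other distal peaks, and receptors are packed closely in their clusters. Intergenic annotation was given to 187 of the 222 Olfr peaks (84.2%) at 0 h, against 49.5% of other distal peaks. Distal Olfr peaks were narrower, with a median of 469.5 bp against 494 bp at 120 h and 395 bp against 434 bp at 0 h. The comparison of retention below is therefore made at equal width.

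The 206 distal Olfr peaks listed with E2 were looked for in each later list, beside other 0 h distal peaks weighted to the same widths. Up to 24 h the Olfr share that was kept differed from that of the others by at most 2.15 percentage points. At 24 h 162 of the 206 were kept (78.6%, 72.5 to 83.7%), against 78.1% of others of the same width and 79% of all 0 h distal peaks. The gap was widest at 36 h (-9.01 points), when 130 Olfr peaks were kept (63.1%, 56.3 to 69.4%), against 72.1% of the others. At 48 h 136 were kept (66.0%, 59.3 to 72.1%), against 69.7%. The gap was -8.45 points at 72 h, when 91 were kept (44.2%, 37.6 to 51.0%), against 52.6% of others of the same width and 54.3% of all distal peaks. At 96 h 48 were kept (23.3%, 18.0 to 29.5%), against 28.1% at the same width and 30.6% of all distal peaks. At 120 h 35 were kept (16.99%, 12.5 to 22.7%), against 20.2% at the same width and 22.5% of all distal peaks. The same-width share thus lay outside the Olfr interval at 36 and 72 h and inside it at the other 7 times. Of the 16 Olfr peaks within 1000 bp of a start at 0 h, 5 were kept at 120 h. Of all peaks within 1000 bp of a start, 75.0% were kept, here without matching of width. The sets are unlike, because the annotated receptor start was often the start codon and that of other genes seldom was.

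**Figure D2:**
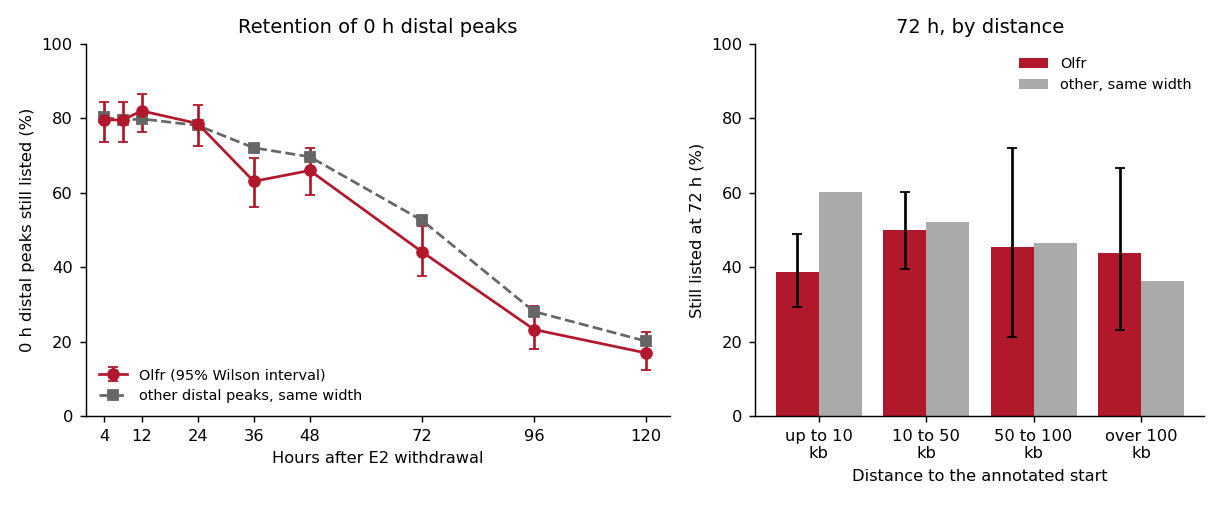
Left, percent of 0 h distal peaks still listed at each later time, for Olfr peaks with 95% Wilson intervals and for other distal peaks of the same width. Right, the same share at 72 h, a time chosen after the values were seen, by distance to the annotated start. Olfr peaks up to 10 kb away stand at 38.7% and other peaks at 60.3%.

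The gap at 72 h, a time chosen after the values were seen, was widest in the peaks nearest to the annotated starts. The gap at 36 h was not split by distance. Up to 10 kb from the annotated start, 36 of 93 distal Olfr peaks were kept at 72 h (38.7%, 29.4 to 48.9%), against 60.3% of others of that distance and width. From 10 to 50 kb, 43 of 86 were kept (50%, 39.7 to 60.3%), against 52.2%. The 2 farther classes held 11 and 16 Olfr peaks, and their intervals span the value of other peaks. At 120 h the nearest class was again lower, with 13 of 93 kept (14.0%, 8.35 to 22.5%) against 26.0%, and the class from 10 to 50 kb was close to other peaks, with 16 of 86 (18.6%) against 17.8%. Beyond 100 kb the Olfr share at 120 h was the higher, with 5 of 16 (31.3%, 14.2 to 55.6%) against 14.3%, which the interval just includes. All 5 were upstream peaks of Olfr161, as were most of the 16, so this class rests mainly on 1 receptor. They are also the 5 kept peaks of the cluster Olfr161 to Olfr15 given below. From 50 to 100 kb 1 of 11 was kept. The difference between the distance classes was not tested.

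Position among neighbouring genes gave a similar division. Regions were placed inside a receptor gene, between receptors, at a cluster edge (between a receptor and another protein-coding gene or a chromosome end), inside another gene, or between other genes. Such an edge can lie within a cluster, wherever another protein-coding gene stands among the receptors. Of the 354 Olfr regions, 161 (45.5%) lay between receptors, 123 (34.7%) at an edge, 44 (12.4%) in a receptor gene, 16 in another gene and 10 between other genes. Among 0 h distal peaks between receptors, 33 of 88 were kept at 72 h (37.5%, 28.1 to 47.9%), against 53.3% of others of the same width. At an edge, 46 of 92 were kept at 72 h (50%, 39.99 to 60.01%), against 51.2%. At 120 h, 11 of 88 between receptors (12.5%, 7.13 to 21.0%) and 20 of 92 at an edge (21.7%, 14.5 to 31.2%) were kept, against 20.8% and 18.9% of others. The edge class holds all 14 of the 0 h peaks of Olfr161, of which 8 were kept at 72 h and 5 at 120 h. Most Olfr1423 regions were edge regions too, so this class rests in part on 2 receptors. The difference between the places was not tested. Of the 12 distal peaks inside receptor genes at 0 h, 7 were kept at 72 h and 0 at 120 h (0 to 24.2%, against 22.5% of others). Inside other genes 4 of 10 were kept at both times (40%, 16.8 to 68.7%), against 23.3% of others at 120 h, and between other genes 0 of 4 were kept at 120 h.

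Regions were then sorted by their course over the 10 lists. Lost regions were present at 0, 4 and 8 h and absent at 72, 96 and 120 h. They made up 62 of the 354 Olfr regions (17.5%, 13.9 to 21.8%), beside 12.5% of all regions. Gained regions, with the reverse course, numbered 9 (2.54%), beside 2.38% of all regions. Constant regions, present in all 10 lists, numbered 24 (6.78%, 4.60 to 9.89%), beside 13.8% of all regions, which include promoters. Transient regions, missing from the 0, 4, 96 and 120 h lists and found in 2 or more successive lists between 12 and 72 h, numbered 30 (8.47%), beside 9.65% of all regions. Among distal regions alone the constant share was 6.44% (4.25 to 9.65%, 21 of 326) for Olfr, against 9.14% of other distal regions and 7.65% of those of the same width, both inside the interval. The lost share was 17.8% (14.02 to 22.3%), against 13.8% of other distal regions of the same width, just outside the interval. Gained regions were 2.15% (1.04 to 4.37%) against 2.36%, and transient regions 8.28% (5.75 to 11.8%) against 11.7%, both inside. The last list of the lost Olfr regions was the 8 h list for 3, that of 12 h for 6, that of 24 h for 10, that of 36 h for 12 and that of 48 h, the latest allowed, for 31. The same split was not made for all lost regions, so these times do not set the receptors apart. Between receptors 33 of 161 regions were lost and 8 were constant, and at cluster edges 19 of 123 were lost and 11 were constant.

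The widest constant regions mostly lay beside or inside a gene that is no receptor. The widest, of 1216 bp at its widest peak, lay 24766 bp from Olfr1423 at chr19:12011320-12012618, on a valine tRNA repeat at the edge towards Osbp, which encodes an oxysterol-binding protein. The next, assigned to Olfr1368, lay at the edge towards Trim27, a ubiquitin ligase gene, with 1059 bp. The region assigned to Olfr521 (1013 bp) lay towards Neu3, a sialidase gene, and that of Olfr1394 (958 bp) in an intron of Btnl9, a butyrophilin-like gene. Those of Olfr433 (851 bp) and Olfr525 (762 bp) lay at the edges towards Ifi205 and 5830411N06Rik. Only Olfr1301 and Olfr229 among the 8 widest had the constant region in the receptor's own exon. Chosen after its values were seen, a constant region assigned to Olfr460 lay in the 3' UTR of Clec5a, a lectin receptor gene of myeloid cells.

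Gained regions were few, and their first lists varied. Olfr1469 had one on an RLTR50A element listed from 12 h on, with a widest peak of 851 bp. Olfr164 had one of 801 bp from 24 h on, on an MMERVK10C-int element at the edge towards Hira, which encodes a histone chaperone. Olfr461 had one from 24 h on in its exon and start, the window printed above. Olfr211 had one of 594 bp from 36 h on, at the edge towards Alox5, the 5-lipoxygenase gene that leukotriene synthesis in neutrophils needs. Olfr1045 had one from 36 h on as well, on an ORR1D2 element. Olfr920, in an intron of Vwa5a, and Olfr1230, in its exon, had theirs from 48 h on. So 2 of these 7 gained regions lay in a receptor's own exon, and 3 lay inside or towards another gene.

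Near annotated starts, 29 regions of 28 receptor genes had a peak within 1000 bp in some list. Of these, 21 were downstream of the start in every list that held them and 8 were upstream. In 10 lists stood Olfr1301, at 449 to 523 bp downstream with widths of 557 to 765 bp, Olfr229, at 208 to 396 bp downstream with 317 to 747 bp, and Olfr432, at -897 to -808 bp with 297 to 660 bp. Olfr1033 was listed in 9 lists at -108 to -15 bp from its start (chr2:86020101-86021014). Its widths were 714, 720, 914 and 667 bp in the lists up to 12 h and 586, 681, 718, 506 and 523 bp in those from 36 h on, and it was not listed at 24 h, the longest list. The cause of this gap was not tested.

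Other receptor starts were listed in part of the course. Olfr1258 and Olfr1511 were listed from 0 to 72 h and not after, Olfr1510 from 0 to 48 h, and Olfr420 from 0 to 36 h. Of the 2 near-start regions of Olfr433, the downstream one was listed up to 72 h except at 24 h. The upstream one, at -977 to -958 bp, is the constant region named above and had a peak within 1000 bp of the start at 4, 24, 96 and 120 h. Olfr1509, the neighbour of Olfr1510 and Olfr1511, came and went, being absent at 12, 24 and 48 h and present from 72 to 120 h. Olfr52 was absent at 0, 4 and 12 h and present from 24 h on. Olfr1264 was listed from 8 to 48 h and again at 120 h. The 3 chromosome 14 genes thus differed in their last list.

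**Figure D3:**
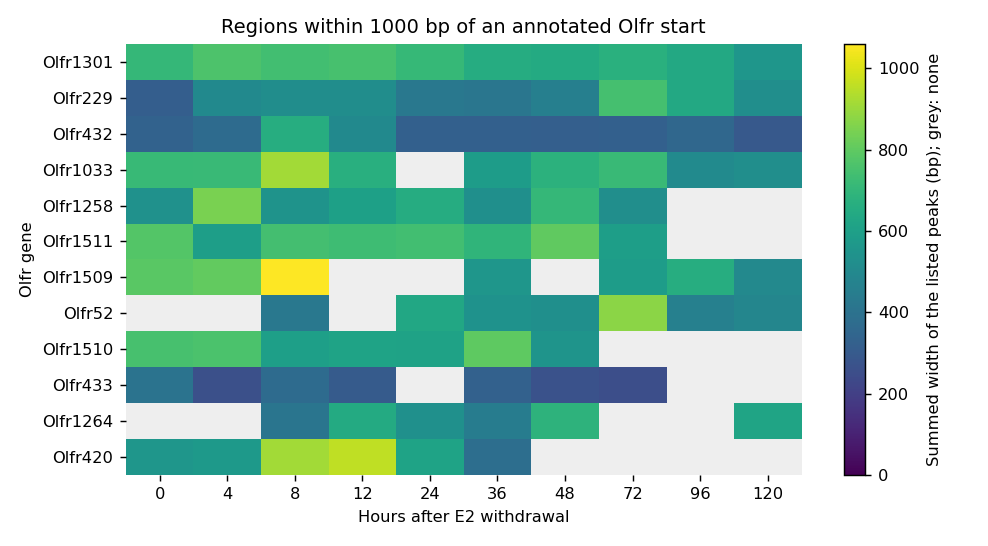
Summed width in bp of the listed peaks in each region within 1000 bp of an annotated Olfr start, for the 12 regions found in most lists, against hours after E2 withdrawal; grey cells had no peak. Olfr1301, Olfr229 and Olfr432 fill all 10 lists, and the rows of Olfr1258, Olfr1511, Olfr1510, Olfr420 and the downstream region of Olfr433 are empty at 96 and 120 h.

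Regions were unevenly spread over the receptors. Olfr161 had 15 regions, Olfr1423 and Olfr1507 had 11 each, Olfr164 had 6, and Olfr266 and Olfr412 had 5 each. Olfr1258, Olfr1396, Olfr372, Olfr432, Olfr545 and Olfr985 followed with 4 each, and the first 4 of these by name are among the genes described. Olfr161, the first receptor from the start of the assembled chromosome 16, had 14, 11, 9, 13, 9, 8, 9, 8, 5 and 5 peaks in the lists in order of time. Its regions reached -500962 bp from its start (minus: upstream), and 13 of the 15 lay upstream. Constant sites stood at -476727 and -469368 bp, and the 2 sites downstream of the start, both on RLTR46B elements towards the pyrin gene Mefv, were listed from 0 to 72 h and not after.

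Olfr1423 had more constant sites than any other receptor. The lists held 11, 10, 11, 12, 12, 12, 13, 11, 6 and 4 peaks of it in order of time, all 9922 to 34395 bp downstream of its start, and 3 of its 11 regions were constant. Olfr1507 differed from both. It is the receptor also known as MOR28, next to which the H element, a receptor enhancer of olfactory neurons, is known to lie. It had 4, 4, 5, 9, 7, 5, 3, 2, 0 and 0 peaks, all -246679 to -30402 bp from its start. So its number was highest at 12 h, and no region of it was listed at 96 or 120 h. Most of these regions lay between the gene models Gm36448 and Dad1, and whether any is the H element was not examined. The placement used receptor and protein-coding genes alone, so gene segments of other kinds in this interval were not considered. Of the smaller sets, Olfr412 had 0 peaks at 120 h and 5 at 0 h, 3 of its 5 regions lying in introns of Rap1gap2. Olfr432 had 3 peaks at 120 h and 2 at 0 h.

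**Figure D4:**
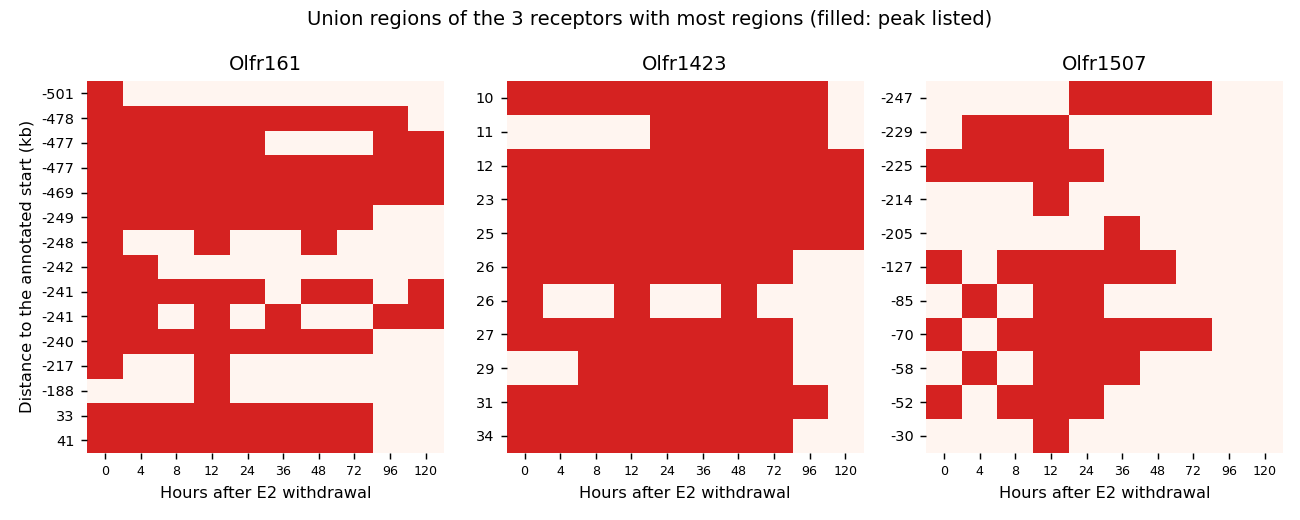
Union regions of Olfr161, Olfr1423 and Olfr1507, ordered by distance to the annotated start in kb (negative: upstream), with filled cells where the list of that time, in hours after E2 withdrawal, held a peak. Olfr1423 has 3 rows filled in every list, and Olfr1507 has none filled at 96 and 120 h.

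Clusters were defined as runs of Olfr genes with starts at most 1 Mb apart, which gave 65 clusters, 43 of them with 2 or more genes. Member regions lay in 44 clusters. A peak was listed in 26 clusters at 120 h and in 37 at 0 h, and 3 clusters had more peaks at 120 h than at 0 h. The 10 clusters with most regions held 36 peaks at 120 h and 145 at 0 h. Over the genome, all peaks at 120 h came to 42.7% of their 0 h number, and all distal peaks to 32.8%. The chromosome 2 cluster Olfr987 to Olfr1274, with 293 genes, had 43 regions, with 11 peaks at 120 h and 22 at 0 h. The chromosome 7 cluster Olfr543 to Olfr692, with 158 genes, had 32 regions, with 1 peak at 120 h and 22 at 0 h. The chromosome 19 cluster Olfr1417 to Olfr1505 had 28 regions, with 6 peaks at 120 h and 22 at 0 h. These 3 clusters began with equal numbers and differed at 120 h.

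**Figure D5:**
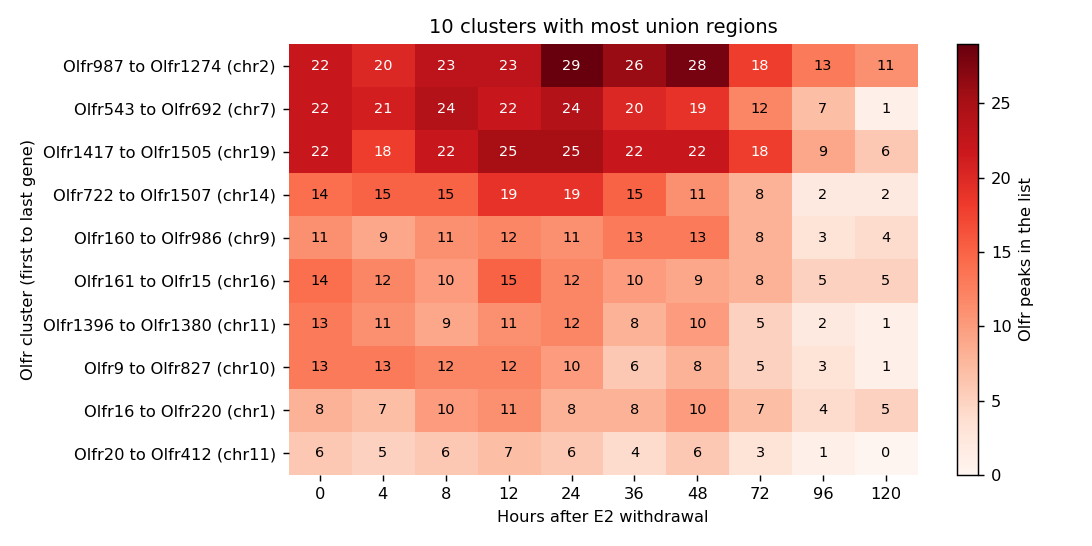
Number of Olfr peaks in each list for the 10 clusters with most union regions, each named by its first and last gene, against hours after E2 withdrawal. Olfr543 to Olfr692 holds 1 peak at 120 h and 22 at 0 h, and Olfr20 to Olfr412 holds 0 and 6.

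Retention by cluster was uneven, on small numbers. Of the 7 clusters with at least 10 distal peaks at 0 h, 5 kept fewer at 120 h than other peaks of the same width. Olfr543 to Olfr692 kept 0 of 21 (0 to 15.5%), against 22.3% at the same width, and Olfr9 to Olfr827 kept 0 of 11 (0 to 25.9%), against 16.6%. Olfr987 to Olfr1274 kept 3 of 20, Olfr722 to Olfr1507 1 of 11 and Olfr1396 to Olfr1380 1 of 13. Above the same-width share stood Olfr161 to Olfr15, with 5 of 14 (35.7%, 16.3 to 61.2%) against 18.4%, and Olfr1417 to Olfr1505, with 5 of 21 (23.8%, 10.6 to 45.1%) against 16.4%. At 72 h Olfr1417 to Olfr1505 kept 15 of 21 (71.4%, 50.04 to 86.2%), the highest share of the 7, and Olfr987 to Olfr1274 kept 5 of 20 (25.0%, 11.2 to 46.9%). Of those 21 peaks, 11 were assigned to Olfr1423 alone. Peaks of a cluster are neighbours, so these intervals do not serve to compare clusters. Same-width shares by cluster were not computed at 72 h. The difference between clusters was not tested.

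Receptor clusters held few peaks of any kind for their length. Over the 31 clusters with at least 5 receptor genes, 34.2 Mb in all, peaks of any gene stood at 5.05 per Mb inside the clusters and 18.3 per Mb in the 500 kb on either side at 120 h. At 0 h the densities were 11.6 and 40.1 per Mb. The inside density was the lower in 27 of 31 clusters at 120 h and in 29 of 31 at 0 h. Both densities at 120 h were under 50% of those at 0 h.

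Intergenic Olfr peaks were annotated to repeats more often than other intergenic peaks. At 120 h 18 of 46 (39.1%, 26.4 to 53.5%) were on a repeat, against 28.3% of other intergenic peaks, which the interval includes. At 0 h 77 of 187 (41.2%, 34.4 to 48.3%) were, beside 25.7% of all intergenic peaks. The excess was largest for ERVK, a class of endogenous retroviruses with long terminal repeats, with 9 of 46 (19.6%, 10.7 to 33.2%) against 4.48% at 120 h and 27 of 187 (14.4%, 10.1 to 20.2%) against 3.58% at 0 h. L1 elements, which are known to be dense in receptor clusters, took 2 of 46 against 3.96% at 120 h and 15 of 187 (8.02%, 4.92 to 12.8%) against 3.17% at 0 h. The share of the cluster DNA that each repeat class takes up was not analysed here.

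Single repeat types showed which elements these were. RLTR45, an ERVK terminal repeat, held 15 Olfr regions of 469 over the genome, with 3 peaks at 120 h and 8 at 0 h. The RLTR45 sites of Olfr1044 and Olfr1324 were constant, these 2 chosen after their values were seen. ERVB4_3-LTR_MM held 4 Olfr regions of only 22 in all, and 2 of them belonged to Olfr1258, one constant and one listed from 0 to 48 h. B3 and B2_Mm2, short B2-class repeats, held 0 Olfr peaks each at 120 h and 6 and 5 at 0 h. Their number over the genome at these times was not counted. The B2 class took 7.49% of intergenic Olfr peaks and 4.90% of others at 0 h, and 4.76% and 3.16% at 72 h. Intergenic Olfr peaks on a repeat were kept at 120 h in 11 of 77 cases (14.3%, 8.17 to 23.8%), against 22.0% of other such peaks of the same width, and those off repeats in 21 of 110 (19.1%, 12.8 to 27.4%) against 19.9%.

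The other chemoreceptor families did not share 1 course. Vmn1r genes, vomeronasal receptors of the first type, had 30 distal peaks at 0 h, of which 1 was kept at 120 h (3.33%, 0.591 to 16.7%), against 19.1% at the same width. Vmn2r genes, of the second type, kept 17 of 48 (35.4%, 23.4 to 49.6%), against 22.0%. The Olfr share of 16.99% stood between them, and the Olfr and Vmn2r intervals did not overlap. Bitter taste receptor genes (Tas2r) kept 3 of 12 and trace amine receptor genes (Taar) 0 of 3.

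Genes that act with the receptors were examined from a list of 20 transduction and neuron genes. A peak within 1000 bp of the start stood in all 10 lists for 3 of them, in some lists for 5 and in none for 12. Of 21896 protein-coding RefSeq genes, matched by symbol, 21.4% had such a promoter peak in all lists, 27.6% in some and 51% in none. Among the 3 were Slc12a2, a chloride importer, and Ric8b, an exchange factor for the olfactory G protein. Those in some lists were Gng8 (9 lists) and Gnb1 (7), G protein subunits, Pde4a (7), a phosphodiesterase, Adcy3 (6), the cyclase of odour signalling, and Omp (3), the olfactory marker protein. Adcy3 was listed from 0 to 36 h and Omp at 0, 4 and 12 h. No promoter peak was listed for Gnal, the olfactory G protein, the channel subunits Cnga2, Cnga4 and Cngb1, the chloride channel Ano2, the receptor chaperones Rtp1 and Rtp2, or Gng13, Stoml3, Reep1, Ncam2 and Pde1c.

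Of 17 genes known to regulate receptor choice, 6 had a promoter peak in all lists, 6 in some and 5 in none, beside the same 21.4%, 27.6% and 51% of protein-coding genes. With lists this short, the counts describe these genes and do not set them apart from others. The 6 in all were Ldb1, a LIM cofactor, Ebf1, a factor that binds receptor promoters, Lbr, the lamin B receptor, Eif2ak3, the kinase of the unfolded protein response, and the histone methyltransferase genes Ehmt1 and Setdb1. In some lists stood Kdm1a (8), a histone demethylase, Ehmt2 (7), Bptf (4), a chromatin remodeller subunit, Cbx5 (4) and Cbx3 (1), heterochromatin proteins, and Atf5 (2), a transcription factor. Lhx2, Ebf2, Ebf3, Ebf4 and Emx2 had none. Several of these genes are active in many tissues.

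The cell label was set against marker genes. Of 10 myeloid and progenitor markers, 9 had a promoter peak in some list, with Itgam, the integrin CD11b, in all 10 and Elane in none. Promoter peaks in no list were the case for 51% of protein-coding genes, so a promoter peak in some list alone marks no cell type. Of 4 olfactory neuron markers, Omp and Adcy3 had a promoter peak in some lists up to 36 h, Gnal and Cnga2 had none, and none of the 4 had one from 48 h on. T cell, erythroid and epithelial markers, 3 each, had none, whereas 2 of 3 B cell and 2 of 3 fibroblast markers had a promoter peak in some lists. The part of other cells in the Olfr peaks was not tested.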

How the data were processed

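ATAC-seq was run by the authors on 20 samples, 2 per time. Per the labels' protocols, nuclei were divided between 2 transposition reactions, so replicates may be technical. The deposited data used here are 10 annotated peak lists, 1 per time. Per the file headers, HOMER annotated them against mm10. The submitters' processing notes name mm9, BWA, MACS2 2.0 and STAR 2.5. By the deposited distances, 10607 peaks of the 0 h list were at most 1000 bp from a start and 1146 were 4000 to 5000 bp away. Such distances show only that the coordinates match the build of the annotation. The headers name that build as mm10, so coordinates were read as mm10 (1-based). Any shift for the Tn5 cut, pooling of replicates, and the handling of reads with several matches are not given in the sources used here. The deposited score was 0 for every peak and was not used.

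An overlap of at least 1 bp counted as kept. The same-width share is that of other distal peaks in 10 width classes, weighted to the Olfr peaks. A union region took the gene and annotation of its widest peak. Receptor positions came from RefSeq (GRCm38.p6). Of 217 symbols, 216 matched by symbol and 1 by gene ID. The overlap, union and weighting steps were tested on simulated data. Members and lists were chosen with earlier results of these data known. Named genes were the 12 near-start regions in most lists, the 10 genes with most regions, up to 8 genes each with the widest constant or gained regions, the 10 largest clusters, and the pathway genes. Some items that this rule names are not reported here. Scripts ran in Python 3.11.15 with pandas 2.3.3 and numpy 2.4.6, Wilson intervals came from scipy 1.17.1, and plots were drawn with matplotlib 3.10.9. Alternatives changed the overlap, late list, distance limits, matching, cluster rule and list length.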

Additional observations from a re-analysis of the deposited data

How the results depend on the processing

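The 120 h share of kept Olfr distal peaks, 16.99%, was 30.4% with lists cut to the 23620 widest peaks (14 of 46), 23.3% against the 96 h list and 44.2% against the 72 h list, and it stayed inside its interval in the other 12 settings. Its difference from other peaks of the same width, -3.17 points, was below 0 in all 13 settings (-8.45 to -1.32), with -8.45 against the 72 h list. The 72 h difference was an added result, chosen after seeing the data. It was below 0 in all 18 settings, with -5.60 beyond 3000 bp of the start and -22.6 with cut lists. Leaving out single clusters gave -12.0 to -6.40. With cut lists the lost share was 9.66% (all regions 6.69%), gained 8.28% (5.17%), constant 4.14% (15.1%) and transient 2.07% (4.86%). With 2 early and 2 late lists the lost share was 35.3% (all regions 27.6%). Counted as peaks of any gene inside cluster spans, the numbers were 413, 411, 429, 431, 476, 429, 431, 348, 227 and 185 from 0 to 120 h. With cut lists the Olfr peaks numbered 54, 53, 51, 50, 56, 47, 46, 51, 57 and 62. Other cluster gaps gave 34 and 41 clusters with a 0 h peak in place of 37. No paired analysis was possible because each time has 1 list, and for the same reason no replicate could be left out. Depth is unknown, so an unlisted site may be closed or undetected.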
